A study of Mus musculus with 8 samples.

Results

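The Shh locus was described across wild-type (WT) and Danforth's short tail (Sd/Sd) tailbuds as the open-chromatin regions of a 1.0 Mb window of mouse chromosome 5, from 28.70 to 29.70 Mb in build mm9. The window holds Shh, which lies near 28.783 to 28.794 Mb, the gene desert upstream of it, and the position of the limb enhancer of Shh, near 29.641 Mb inside the gene Lmbr1. Of 26620 regions that the authors counted on 19 autosomes, 2 fell in this window. Neither lay in Shh or at the limb enhancer.

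The assay was ATAC-seq, in which the transposase Tn5 cuts and tags open chromatin. The tissue was the tailbud of mouse embryos at embryonic day 9.5. There were 4 libraries from WT/WT and 4 from Sd/Sd embryos, the latter homozygous for the Sd mutation, known as a retrotransposon insertion upstream of Ptf1a on another chromosome. All were on the outbred CD-1 background, and several tailbuds were combined where 1 gave too little DNA. A p-value therefore reflects variation among these libraries, some of which may be pools. Library totals over the counted regions ran from 2873918 to 4180434 counts, with a median of 76 to 106 counts per region. Whether tailbud marker genes were open could not be checked, because the gene table used here is of another genome build (GRCm38.p6). That table was used for gene names and their order only.

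As background, Shh encodes Sonic hedgehog, a secreted ligand made by the notochord, the floor plate of the neural tube and the gut endoderm. It binds the receptor Ptch1, which releases Smo and lets the GLI transcription factors activate targets in the neural tube and sclerotome. Shh is known for control over long distances: separate enhancers in its introns and across the upstream desert drive it in the floor plate, brain, gut lining and lung, and the limb enhancer, known as the ZRS, drives it in the posterior limb bud. In Danforth's short tail the notochord is known to degenerate. The comparison here asks whether chromatin at the gene and its regulatory desert differs between the genotypes.

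In the RefSeq gene order, Rbm33 precedes Shh on the side away from the desert. On the desert side Shh is followed by the protein-coding genes Rnf32, Lmbr1, Nom1 and Mnx1. Between Shh and Rnf32 the table lists 6 genes, of which 4 are long non-coding RNAs (9530036O11Rik, Gm42243, Gm35688 and Gm35881), 2 are pseudogenes and 0 are protein-coding. Shh is read from the reverse strand, so that its upstream side has the higher coordinates.

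The Shh gene and most of its desert held little open chromatin that passed the authors' peak calling in these tailbuds. Regions open in only some cells may go uncalled in such mixed tissue, so the absence of a call does not show closed chromatin. No counted region lay between 28644092 and 29458463, a stretch of 814.4 kb that contains the whole Shh span. The median gap between neighbouring counted regions was 46.9 kb over the 26601 gaps of the autosomes. The stretch around Shh ranked 149 from the longest of these (0.556% were longer) and 10 of 1573 on chromosome 5. Assembly gaps and centromeres were not removed from this ranking.

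The other gaps that touch the window were closer to the usual spacing. The distance between both counted regions was 62.75 kb, and the distance from the upper one to the next region, just past the window, was 181.4 kb, with 12.2% of all gaps longer than the latter. Windows of 1.0 Mb laid end to end in the same phase over the autosomes had a median of 10 counted regions, and 178 of 2390 (7.45%) held 2 or fewer. The count of 2 in the Shh window depends on where its edges lie. Tiles starting at whole megabases split it into tiles of 6 and 7 regions.

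**Figure D1:**
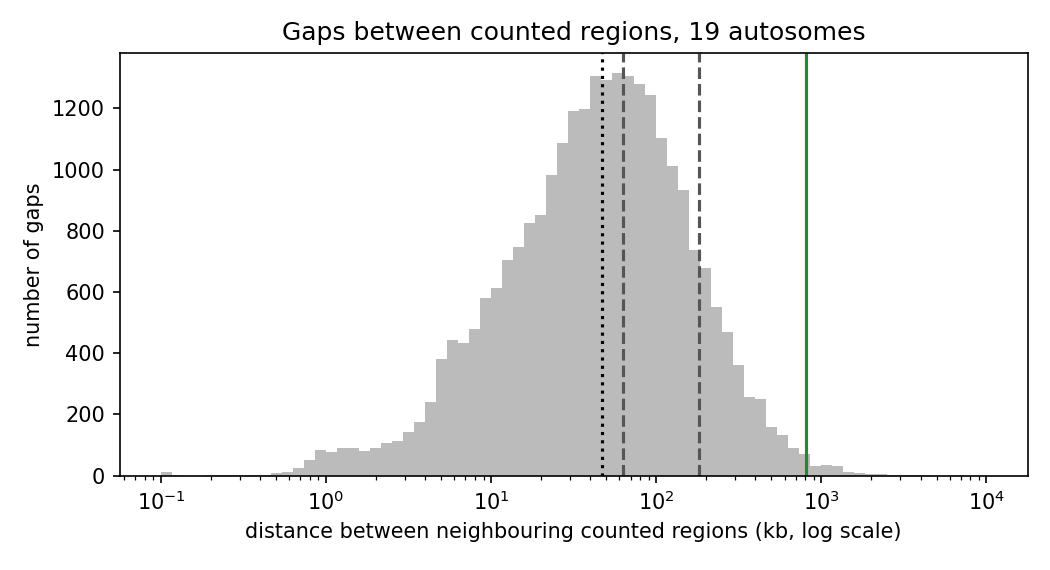
Histogram of the distances between neighbouring counted regions on the 19 autosomes, in kb on a log scale, with the number of gaps on the vertical axis. The solid green line marks the 814.4 kb stretch that holds Shh, the dashed lines mark the 62.75 and 181.4 kb gaps of the window, and the dotted line marks the median of 46.9 kb; the Shh stretch lies in the upper tail.

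The authors' peak lists, made for each library alone, showed a long stretch without a peak upstream of Shh in every library, with differing ends. Measured from each library's own peaks, the stretch at the Shh start without a peak was 878.4, 878.1, 878.4 and 878.1 kb long in the WT libraries, given here and below in the order of replicates 1 to 4. The Sd/Sd libraries had 666.8, 814.7, 814.7 and 877.8 kb. In all 4 WT libraries and in Sd/Sd replicate 4 it ran from the region below the window to the region at 29.52 Mb. The 3 shorter stretches ended at a peak at 29.46 Mb, and that of Sd/Sd replicate 1 also began at a peak inside Shh. Peak numbers in the deposited lists ran on without a break across the window in 8 of 8 libraries, so no peak is missing from it in the lists used here.

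**Figure D2:**
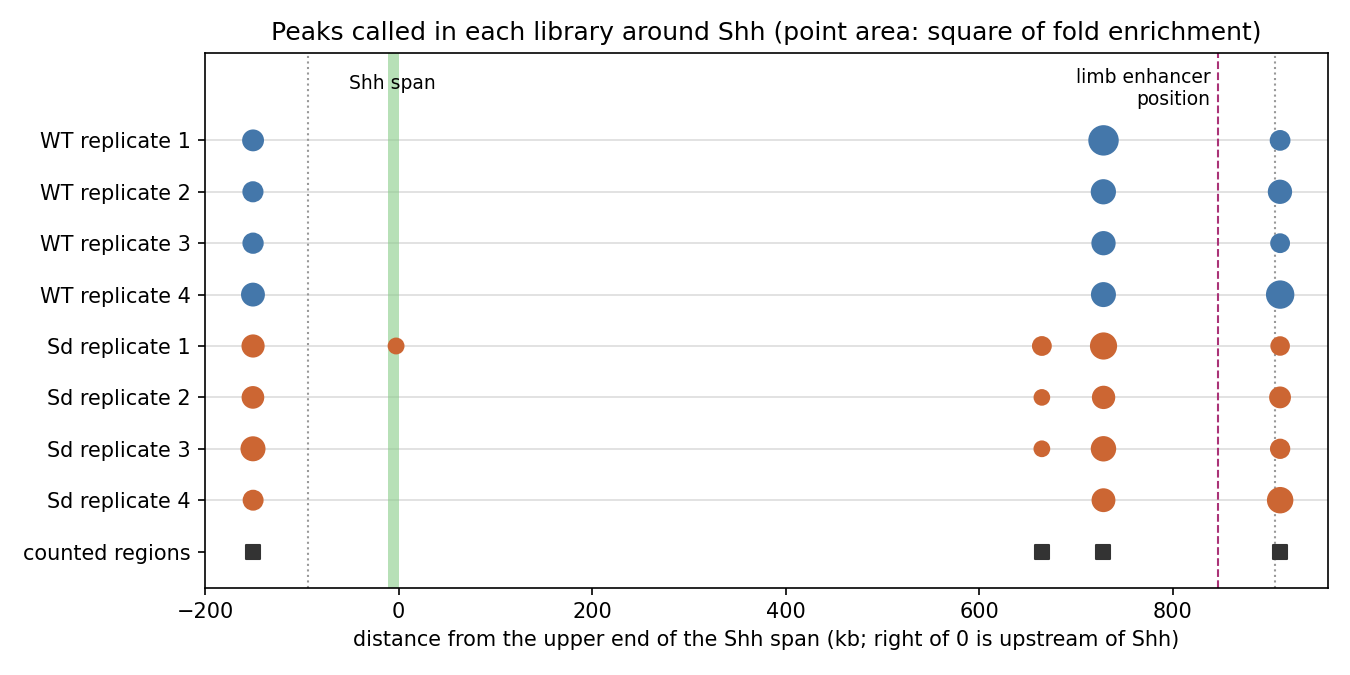
Peaks of each library (1 row each, WT blue, Sd/Sd orange) and counted regions (squares) against distance in kb from the upper end of the Shh span, with point area set by the square of the peak's fold enrichment; dotted lines bound the window. All 8 libraries have a peak in 3 columns, at 28.64, 29.52 and 29.70 Mb, 3 Sd/Sd libraries have one at 29.46 Mb, and 1 has one in Shh.

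Within Shh itself, 1 peak was called, in Sd/Sd replicate 1, and none was called in the other 7 libraries. It spanned 28791092 to 28791680 (589 bp) and ended 2320 bp below the upper end of the Shh span, on the gene side of the start. Whether it lies in an exon or an intron was not determined. The peak caller gave it a fold enrichment of 2.90, a −log10 p-value of 4.01 and a −log10 q-value of 1.61, and 19.5% of the peaks of that library had a smaller −log10 p-value.

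Peaks found in a single library were common over the genome. Of 54170 intervals made by merging the peaks of all libraries, 24525 (45.3%) had a peak in 1 library only. Of these, 3649 belonged to Sd/Sd replicate 1, and their median fold enrichment of 2.76 was close to the 2.90 of the peak in Shh. That library had 25809 peaks in all and the second highest total count. With only the 18682 strongest peaks taken from every library, the peak in Shh was no longer among them. Since the region was not counted, the genotypes cannot be compared by level at Shh.

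At the limb enhancer no library had a peak, and no counted region lay within 5 kb. The nearest peak was 63.5 to 63.8 kb away in all 8 libraries, at the counted region that follows the window. The absence of a call means only that no interval passed the caller's largest q of 0.1 in these libraries. Limb buds were not sampled as such.

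The stronger of both counted regions, from 29521882 to 29523085 (1204 bp), had overlapping levels in both genotypes. It lies 727.9 kb above the Shh span and 117.9 kb below the limb enhancer. Its accessibility was 51.3, 48.0, 44.2 and 48.9 CPM in the WT libraries, where CPM is the count per 1000000 counts of the library. The Sd/Sd libraries had 48.0, 41.7, 50.4 and 44.0 CPM. The ranges overlapped, and neither genotype held all the high or all the low libraries.

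The mean at 29.52 Mb was 48.1 ± 2.95 CPM in WT and 46.0 ± 3.89 CPM in Sd/Sd (SD, n = 4 each). The fitted log2 fold change of Sd/Sd over WT was -0.06 (SE 0.13, 95% interval -0.30 to 0.19), with an adjusted p = 0.981 in edgeR's quasi-likelihood test. The interval spans 0.81-fold to 1.14-fold, so that larger changes in either direction lie outside it. This region was more accessible than most, with a mean of 47.1 CPM that exceeded 76.8% of all counted regions and a density of 39.1 CPM per kb that exceeded 67.2%.

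All 8 libraries had a peak on the region at 29.52 Mb, as did 41.3% of all counted regions. Fold enrichment of these peaks was 5.56, 4.53, 4.35 and 4.49 in the WT libraries. The Sd/Sd libraries had 4.92, 4.17, 4.57 and 4.26. These are the peak caller's own values, as the authors deposited them, and their ranges overlapped. The peak covered 446 to 890 bp in WT and 586 to 1204 bp in Sd/Sd, and between 72 and 89.8% of the peaks of the same library had a smaller −log10 p-value.

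The weaker region, from 29458464 to 29459133 (670 bp), was called as a peak in some Sd/Sd libraries only, while its counts did not differ beyond the spread between libraries. It lies 664.5 kb above the Shh span, and 181.9 kb below the limb enhancer. A peak was called there in Sd/Sd replicates 1, 2 and 3 and in no WT library, so only Sd/Sd peaks brought it into the counted set. Peaks in 3 Sd/Sd and no WT libraries were found at 405 counted regions (1.52%), and peaks in 3 WT and no Sd/Sd libraries at 86 (0.323%). The lists differed in length, with 22596, 20316, 18682 and 24664 peaks in WT and 25809, 21306, 24102 and 30387 in Sd/Sd. How far list length accounts for the 405 against 86 was not tested.

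Counts at 29.46 Mb were 61, 29, 31 and 53 in the WT libraries and 62, 55, 55 and 55 in the Sd/Sd libraries. Scaled to library totals these were 17.7, 9.60, 10.8 and 15.5 CPM in WT and 17.2, 17.8, 16.6 and 13.2 CPM in Sd/Sd. WT replicates 2 and 3, the libraries with the smallest totals, were the low ones. Sd/Sd replicate 2 had 17.8 CPM at a total of 3090233, close to the 3019937 of WT replicate 2. Whether library total bears on the level at this region was not tested. WT replicates 1 and 4 lay within 13.2 to 17.8 CPM, the range of the Sd/Sd libraries.

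The mean at 29.46 Mb was 13.4 ± 3.83 CPM in WT and 16.2 ± 2.08 CPM in Sd/Sd (SD, n = 4 each). The fitted log2 fold change was 0.26 (SE 0.22, 95% interval -0.18 to 0.70), a fold of 1.2 with an interval from 0.885 to 1.62. A change of this size is near that of the 405 regions with peaks in 3 Sd/Sd and no WT libraries, whose median log2 fold change was 0.28, with 380 of them higher in Sd/Sd. The region at 29.46 Mb is one of these, and picking regions by peaks of the same libraries favours that direction. The 86 regions of the opposite pattern had a median of -0.343, with 2 higher in Sd/Sd. The change at 29.46 Mb did not pass the test (adjusted p = 0.919 in edgeR, unadjusted p = 0.243 from the same fit). Without WT replicate 1 the log2 fold change was 0.42, and without WT replicate 2 or WT replicate 3 it was 0.13 or 0.17. It passed the threshold in none of these fits.

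Peak calls at 29.46 Mb went with the level of the region in all libraries but 1. The 3 libraries with a call were at 16.6 to 17.8 CPM, and 4 of the 5 without one were at 9.60 to 15.5 CPM. Calls and counts come from the same libraries, so neither is independent of the other. Their 95% counting intervals overlapped, with 12.5 to 21.6 CPM in Sd/Sd replicate 3 (called) and 11.6 to 20.3 CPM in WT replicate 4 (not called). The exception was WT replicate 1, which had 17.7 CPM and no call. Sd/Sd replicate 4, at 13.2 CPM, had the largest total of all libraries and no call. The 3 peaks had fold enrichments of 3.48, 2.85 and 2.87 and −log10 q-values of 3.02, 1.33 and 1.45 in Sd/Sd replicates 1, 2 and 3. When the same number of strongest peaks was taken from each library, the call remained in Sd/Sd replicate 1 alone. The mean of 14.8 CPM exceeded 19.4% of all counted regions and the density of 22.1 CPM per kb exceeded 11.5%.

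**Figure D3:**
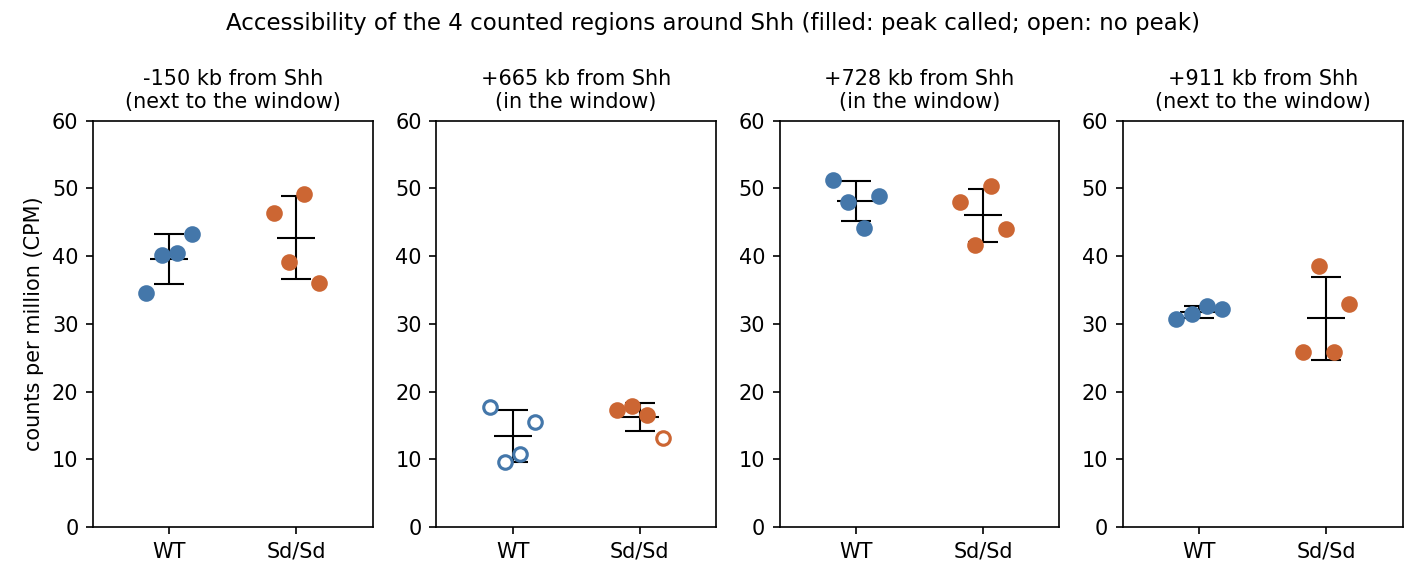
CPM of each library at both counted regions of the window and at the nearest counted region on each side, named by distance from the upper end of the Shh span (bars: mean ± SD, n = 4 per genotype; filled points: peak called, open points: none). WT and Sd/Sd libraries overlap in all 4 panels, and at the region 664.5 kb above Shh, 5 of 8 libraries have no peak.

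Of both regions in the window, 0 passed an adjusted p of 0.05 in edgeR, against 0.0188% of all counted regions. An unadjusted p under 0.05 was reached by 0 of 2, against 6.06% of all regions, and DESeq2 and limma gave 0 of 2 by either criterion. Libraries of the genotypes were without overlap at 0 of 2, against 3.2% of all regions. The median log2 fold change of the pair was 0.10, with 1 region above and 1 below 0, and the median over all regions was 0.0006. With so few members these shares show nothing particular to the window.

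The summed accessibility of both regions was 69.0, 57.6, 55.0 and 64.4 CPM in WT and 65.3, 59.5, 67.0 and 57.2 CPM in Sd/Sd. The mean was 61.5 ± 6.37 CPM in WT and 62.2 ± 4.63 CPM in Sd/Sd (SD, n = 4 each). The difference of 0.74 CPM was smaller than the spread within either genotype, and it changed sign when any of 4 libraries was left out (replicates 2 and 3 of WT, replicates 1 and 3 of Sd/Sd). In tissue that holds many cell types, fewer cells with an open region and less opening per cell cannot be told apart.

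Levels also overlapped between the genotypes at the counted regions that flank the window. The region nearest to the Shh start, from 28643054 to 28644091, lies 149.9 kb from it on the side of Rbm33. Its level was 34.5, 40.1, 40.4 and 43.3 CPM in WT and 46.4, 39.2, 49.2 and 36.1 CPM in Sd/Sd. The log2 fold change there was 0.11 (SE 0.13, 95% interval -0.15 to 0.38, adjusted p = 0.957 in edgeR). The region nearest to the limb enhancer, from 29704493 to 29705317, lies 63.49 kb above it.

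At 29.70 Mb the level was 30.7, 31.5, 32.7 and 32.2 CPM in WT and 25.8, 38.5, 25.9 and 33.0 CPM in Sd/Sd. The Sd/Sd libraries lay on both sides of the WT libraries, with an SD of 6.13 against 0.873 CPM. The log2 fold change was -0.04 (SE 0.15, 95% interval -0.34 to 0.26, adjusted p = 0.995 in edgeR). Both flanking regions had a peak in 8 of 8 libraries.

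With 1 Mb added on each side, from 27.70 to 30.70 Mb, 19 regions were counted, and 0 passed an adjusted p of 0.05 in edgeR. An unadjusted p under 0.05 was reached by 2 of them (6.06% of all regions did so). The region from 27743172 to 27743375 had 4.70 ± 0.645 CPM in WT and 8.25 ± 2.61 CPM in Sd/Sd (SD, n = 4 each), with peaks in 2 Sd/Sd and 0 WT libraries. This region also entered the counted set through the genotype in which it is higher, which favours such a difference. The region from 30399569 to 30400310 had 16.9 ± 2.34 CPM in WT and 11.4 ± 1.49 CPM in Sd/Sd, and its genotypes did not overlap. It was a weak region, with peaks in 2 WT and 1 Sd/Sd libraries. Its mean of 14.1 CPM exceeded 17.3% of all counted regions, and its density of 19.1 CPM per kb exceeded 4.13%. On the log2 scale the fitted changes were 0.82 ± 0.35 and -0.57 ± 0.23 (SE), with edgeR adjusted p-values of 0.792 and 0.743. These lie 1050625 and 1605568 bp from the Shh start. The median log2 fold change of the 19 was 0.021.

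Over the 8 libraries, the log2 CPM of the region nearest to the Shh start correlated at a Pearson's r of 0.27 with the region at 29.52 Mb and 0.16 with the region at 29.46 Mb. Between both regions of the window r was 0.20. The regions most like it in the genome were from 147937702 to 147937993 on chromosome 2 (r = 0.972), from 55231473 to 55231970 on chromosome 11 (0.970) and from 7514687 to 7515456 on chromosome 3 (0.958). An r above 0.9 was found for 26 of 26619 regions. The regions named are the extremes of this search, and with 8 libraries such values can arise without a link between regions. All r values here describe the same 8 libraries and their shared scaling, and no test was made of them.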

How the data were processed

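ATAC-seq of 8 tailbud libraries was analysed from the deposited files, with groups and replicate numbers from the labels. Coordinates are in build mm9. The submitters' processing notes name, among other tools, BWA 0.7.15-r1140, MACS2 2.1.1.20160309, bedtools 2.26.0, Picard and SAMtools, with no settings. The authors deposited whole-number counts per region, not normalized, over 1 region set; the files and labels used here do not say if reads, fragments or cut sites were counted. The authors also deposited broad peaks per library, whose columns hold the peak caller's score, its fold enrichment over background (ratio), and its p-value and q-value as −log10. Both regions of the window have the bounds of merged peaks, so the set depends on the libraries compared.

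Genotypes were compared on all 26620 regions with edgeR 4.0.16 (quasi-likelihood F test, robust, TMM scaling, two-sided) in R 4.3.3, Benjamini-Hochberg adjusted over all regions. The procedure was tested on simulated data, with changes larger than those in the window and the same spread for all regions. That simulation does not show how well changes as small as those in the window would be found. TMM factors were 0.9887 to 1.006. CPM in the text are counts over library totals; log2 CPM added 2 counts. Peaks sharing at least 1 bp were merged. Distances and ranks were computed in Python 3.11.15. Alternatives were DESeq2 1.42.0, limma 3.58.1 with voom, other scalings, filters and windows, stricter peaks, leaving out single libraries and a replicate block.

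The window, regions and rules were chosen with earlier results of these data known. Regions named were those in or nearest to Shh and the limb enhancer, and those at an unadjusted p under 0.05. As the window has 2 regions, every region in it was named. Hedgehog pathway and marker genes were not placed, since no mm9 annotation was used here. The ranking of gaps, the tiles and the flanking regions at unadjusted p under 0.05 were added after the data were seen.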

Additional observations from a re-analysis of the deposited data

How the results depend on the processing

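The log2 fold changes at 29.46 Mb, at 29.52 Mb and at the region nearest to the Shh start kept their direction and stayed short of the threshold in all 17 alternatives each, with adjusted p from 0.83 to 1. Leaving out 1 library gave 0.131 to 0.422 at 29.46 Mb, -0.100 to -0.017 at 29.52 Mb and 0.043 to 0.185 at the nearest region. The replicate block gave 0.279, -0.060 and 0.109. Same-numbered libraries deviated together at correlations from -0.00107 to 0.0918, and differently numbered ones at -0.0473 to 0.0204. The value of 0.0918 was that of the replicates numbered 4. The other same-numbered pairs lay within the range of the differently numbered ones, so the numbers were not taken to pair libraries. The block raised the calls over all regions from 5 to 23. Calls over all regions were 3 with DESeq2, 9 with limma, 15 without robust variance, 3 with upper-quartile scaling and 2 to 19 with 1 library left out, and none was in the window. Of the 19 regions of the widened window, 2 had an unadjusted p under 0.05 and 1 was without overlap, against 6.06% and 3.2% of all regions. The median log2 fold change of both regions in the window itself moved between 0.035 and 0.198 with 1 library left out. The summed CPM difference (Sd/Sd minus WT) moved between -1.43 and 3.23 in these fits. Peaks of q at most 1e-05 left 1 of the 3 merged intervals, at 29.52 Mb, and without Sd/Sd replicate 1 there were 2. The longest empty stretch was 666.8 kb between merged peaks of any library, an alternative chosen after seeing the data. Tiles starting at whole megabases, also chosen then, gave 7.75% with 2 or fewer regions, but split the window into tiles of 6 and 7 regions. The count of 29 to 62 at 29.46 Mb limits its precision.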
